A study of Mus musculus with 18 samples.

Results

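Enteroendocrine cells are the hormone-secreting cells of the gut epithelium, and they arise from crypt progenitors through a cascade of transcription factors. The 9 genes described here are Neurog3, Neurod1, Insm1, Nkx2-2, Rfx6, Pax4, Pax6, Isl1 and Fev, chosen by name as regulators of this lineage. They were matched by gene symbol to the count tables, where all 9 were found among 55487 genes. RNA came from whole-thickness ileum of 18 mice, 1 library per mouse, in 3 genotypes of 6 mice each. Mice of the 2 IEC-Ppara genotypes carried Villin-CreERT2 and either 1 copy (heterozygous) or 2 copies (homozygous) of the CAG-Ppara,-EGFP allele at the Col1a1 locus, and the control mice lacked Cre. Every mouse received tamoxifen at 100 mg/kg on 3 consecutive days and was sampled 2 weeks after the last injection. The mice were 8 to 13 weeks old, of both sexes, on a C57BL6/J background and fed chow. The allele expresses FLAG-tagged Ppara from the CAG promoter once Cre has inverted the cassette, and Villin drives Cre in the intestinal epithelium as a whole, not in enteroendocrine cells alone. The transgene is 1 targeted insertion, and whether each control carried 1 or 2 copies is not given in the sources used here. Ppara encodes PPARα, a nuclear receptor that fatty acids activate.

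Neurog3 is the factor that commits a progenitor to the endocrine fate, and it is expressed only briefly in crypt cells. Neurod1, Insm1, Nkx2-2 and Rfx6 follow it and carry the committed cell towards its mature form, while Pax4, Pax6, Isl1 and Fev act in the choice and upkeep of hormone-producing subtypes. Neurog3 and Neurod1 are basic helix-loop-helix proteins, which bind the E-box (CANNTG), and Neurod1 is a classical target of Neurog3. PPARα binds, with its partner RXR, to a direct repeat of AGGTCA spaced by 1 base.

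The 250 bases before the RefSeq start sites of Neurog3 and Neurod1 are shown because these 2 genes make up the best known step of the cascade. The sequences are RefSeq's for GRCm38.p6, read 5′ to 3′ on the strand of the gene, with every E-box in capitals.
Neurog3 (chr10:62132840-62133089, plus strand): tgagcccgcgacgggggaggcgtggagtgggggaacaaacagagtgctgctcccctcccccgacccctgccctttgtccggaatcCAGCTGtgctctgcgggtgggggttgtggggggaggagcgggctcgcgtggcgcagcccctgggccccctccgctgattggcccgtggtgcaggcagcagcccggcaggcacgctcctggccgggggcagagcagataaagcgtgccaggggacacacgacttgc
Neurod1 (chr2:79456637-79456886, minus strand): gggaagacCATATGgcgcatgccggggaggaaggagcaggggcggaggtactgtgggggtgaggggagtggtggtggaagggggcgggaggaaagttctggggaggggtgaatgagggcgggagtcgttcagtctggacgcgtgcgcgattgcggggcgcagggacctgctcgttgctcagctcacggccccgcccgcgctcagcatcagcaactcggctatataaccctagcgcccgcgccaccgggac
Both windows held 1 E-box, CAGCTG in Neurog3 and CATATG in Neurod1. Windows were at hand for 7 of the 9 genes, 8 windows in all, and 5 of the 8 held CANNTG on either strand. Of 32817 mouse windows of the same length, 66.2% held CANNTG, 13.0% held CAGCTG and 3.47% held CATATG. The Isl1 window also held CAGCTG. The letters AGGTCA, searched on both strands, were in none of the 8 windows and in 14.0% of all windows, and the repeat AGGTCANAGGTCA was in none of the 8 and in 0.0335% of all. These matches describe the letters of the windows and are not binding sites.

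The libraries held between 38528522 and 50376371 counts on genes. Levels are given as CPM, the counts of a gene scaled to the total of its library. The 6 controls held 25.8 to 47.4 CPM of Ppara, the heterozygous group 107 to 196 and the homozygous group 184 to 279, with reads of the transgene and of the endogenous gene counted together. Summed levels of 10 smooth muscle markers were 682 to 6501 CPM for the control group, 857 to 4817 for the heterozygous group and 4445 to 10382 for the homozygous group. The lowest were control 6 and heterozygous 3, and the highest was homozygous 3. Summed levels of 12 B cell markers were, in the same order, 20.5 to 623, 17.7 to 353 and 14.9 to 102 CPM, with control 2, control 3, heterozygous 2 and homozygous 1 highest. No marker on these lists was at 0 in every library, and fits that take these libraries or the smooth muscle markers into account are given further on. Because tissue was sequenced in bulk, fewer cells of a type and less RNA per cell cannot be told apart.

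All 9 transcription factors were detected in every library, at low levels. Mean counts per library ran from 14.7 for Pax4 and 37.4 for Neurog3 to 192 for Neurod1 and 218 for Insm1. All 9 passed the filter used for testing (a mean of at least 10 counts over the 18 libraries), whereas the filter of the study (more than 3 CPM in at least 4 libraries) kept Neurod1 and Insm1 only. The 14 granule genes shared by enteroendocrine cells, such as Chga and Chgb, were also detected, with a summed level between 300.3 CPM in control 6 and 538 CPM in homozygous 3. These were also the libraries lowest and highest in smooth muscle markers.

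On a scale per exon length (FPKM), Insm1 and Neurod1 stood highest. Insm1 was at 1.59 ± 0.36 FPKM and Neurod1 at 1.59 ± 0.28 FPKM (mean ± SD, 18 libraries). Insm1 exceeded Neurod1 in 10 of 18 libraries, so these neighbours did not differ beyond their spread. Fev followed at 1.09 ± 0.28 FPKM, below Neurod1 in 17 of 18 libraries and above Isl1 in all 18.
The middle of the order was crowded. Isl1 was at 0.52 ± 0.14 FPKM, Neurog3 at 0.51 ± 0.22 FPKM, Nkx2-2 at 0.48 ± 0.14 FPKM and Rfx6 at 0.40 ± 0.08 FPKM. Isl1 exceeded Neurog3 in 9 of 18 libraries, Neurog3 exceeded Nkx2-2 in 6 and Nkx2-2 exceeded Rfx6 in 14, and each of these differences of means was smaller than the larger SD of the pair. Pax4, at 0.23 ± 0.14 FPKM, lay below Rfx6 in 15 of 18 libraries, and Pax6, at 0.20 ± 0.05 FPKM, lay below Pax4 in 9. The exon length used for Pax6, 11694 bases, joins the exons of all its transcripts and is the longest of the 9, so its FPKM is a low estimate for any shorter transcript. Neurog3 was the fourth in the order of mean FPKM in controls and in heterozygous mice and the seventh in homozygous mice.

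**Figure D1:**
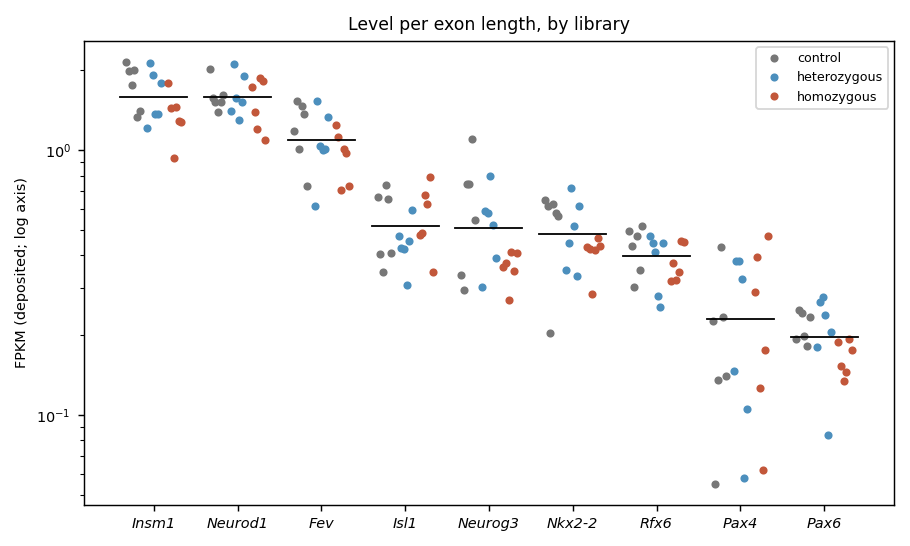
Level of each transcription factor per exon length (FPKM, log axis) in 18 ileum libraries, coloured by genotype; the black line is the mean of all 18. Insm1 and Neurod1 share the top at 1.59 FPKM, and Pax4 and Pax6 are lowest.

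The first question was whether epithelial Ppara overexpression moved the regulators of the lineage in homozygous mice. None of the 9 genes passed an adjusted p under 0.05 in homozygous against control mice (edgeR quasi-likelihood test), where 0.342% of 15489 protein-coding genes did. DESeq2 and limma-voom also called 0 of the 9. At an unadjusted p under 0.05 edgeR had 2 of the 9 (Neurog3 and Insm1, both lower), DESeq2 2 and limma-voom 1, beside 8.52% of all genes in edgeR. Of the 9 log2 fold changes 7 were below 0, with a median of -0.32, while 51.1% of all genes were below 0, with a median of -0.0038. The CPM ranges of both groups overlapped for all 9, and 0.730% of all genes had ranges that did not overlap. In each homozygous library 6 to 8 of the 9 genes lay below the control median, against 2 to 7 in the control libraries themselves and 4 to 9 in the heterozygous libraries, where heterozygous 5 had all 9. The controls define that median, so the total of their counts was fixed in advance. The 9 genes of a library are also not independent of each other, and these counts are a description. The summed level of the 9 genes had a median of 21.0 CPM for controls (range 18.7 to 23.7), 19.9 CPM for heterozygous mice (15.7 to 24.2) and 18.2 CPM for homozygous mice (14.3 to 19.9).

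**Figure D2:**
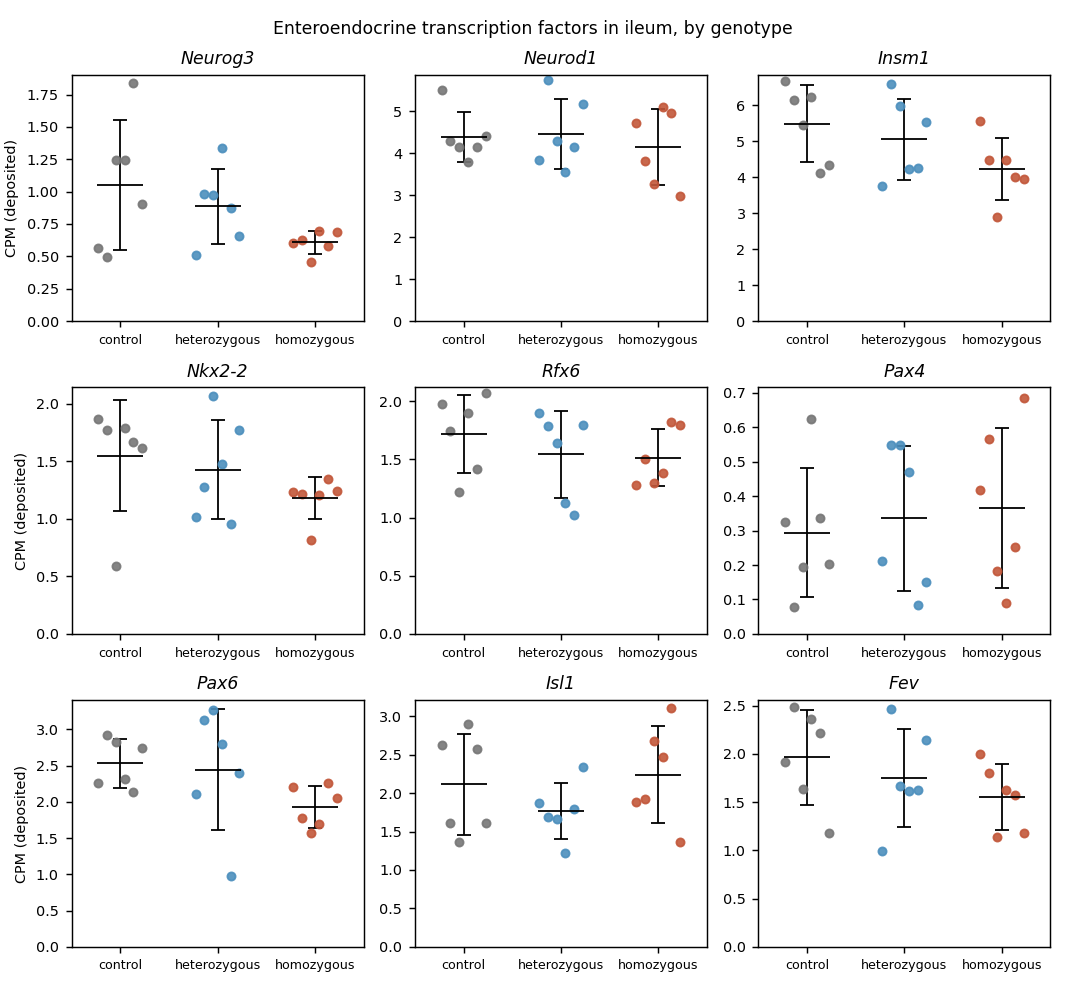
Deposited CPM of each transcription factor in every library (points), by genotype, with the group mean and SD (black, n = 6). Homozygous Neurog3 values sit between 0.455 and 0.692 CPM, overlapping the lower part of the control range of 0.496 to 1.84 CPM, with 1 library below it.

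Neurog3 (ENSMUSG00000044312, chr10:62133090-62134763 of GRCm38, plus strand) had the lowest log2 fold change of the 9 in homozygous mice. Its level in controls was 0.496 CPM at the lowest, 1.08 CPM at the median and 1.84 CPM at the highest, from 25 to 87 counts. In heterozygous mice these values were 0.507, 0.922 and 1.34 CPM, from 24 to 57 counts. In homozygous mice they were 0.455, 0.617 and 0.692 CPM, from 20 to 32 counts. All 6 homozygous libraries lay below the control median, and 1 of them, homozygous 3, lay below the lowest control. Controls 1 and 2, at 0.565 and 0.496 CPM, lay within the homozygous range, so the groups overlapped.
In homozygous against control mice the log2 fold change of Neurog3 was -0.78 ± 0.30 (SE), with a 95% confidence interval from -1.41 to -0.14 and an edgeR adjusted p of 0.508. The difference of mean CPM, -0.441, had a two-sided exact permutation p of 0.0563, and 0.380 after adjustment over the 27 tests of 9 genes in 3 comparisons. Against heterozygous mice the log2 fold change was -0.57 ± 0.30 (95% interval -1.21 to 0.06, edgeR adjusted p = 0.651), with an exact permutation p of 0.0390 (adjusted 0.380). Heterozygous mice differed from controls by -0.20 ± 0.30 (-0.83 to 0.42, edgeR adjusted p = 1.00). Over all alternatives this last value ran from -0.35 to 0.023, so its sign turned. The coefficient of variation of Neurog3 was 47.8% for the controls, 32.6% for the heterozygous group and 14.3% for the homozygous group. Counting error alone gives 14.8%, 15.9% and 19.2%, so the homozygous spread was no larger than counting error. The difference in spread was not tested. Neurog3 shares 273 exon bases, 16.3% of its exon length, with Fam241b on the opposite strand. Whether the counting used strand is not given in the sources used here, so reads on these bases are uncertain. Fam241b was at 12.0 CPM on average, with a log2 fold change of -0.03 ± 0.11 in homozygous against control mice.

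Neurod1 (ENSMUSG00000034701, chr2:79452521-79456751, minus strand), the direct follower of Neurog3, had the smallest standard error of the 9. It was at 3.79, 4.22 and 5.52 CPM in controls (lowest, median and highest), 3.55, 4.21 and 5.74 CPM in heterozygous mice, and 2.98, 4.27 and 5.09 CPM in homozygous mice. The medians of the 3 genotypes nearly coincided, and the ranges overlapped. The log2 fold change was -0.09 ± 0.16 in homozygous against control mice, and its 95% interval reached from -0.42 to 0.25, that is a change of -25.4% to 18.7% (edgeR adjusted p = 0.925). Without control 1 it was 0.0025. It was 0.05 ± 0.16 in heterozygous against control mice (-0.28 to 0.38; -0.052 without the 4 libraries highest in B cell markers) and -0.14 ± 0.16 in homozygous against heterozygous mice (-0.47 to 0.20). Neurod1 shares 201 exon bases, 7.37% of its exon length, with Cerkl on the same strand, which was at 0.433 CPM.

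Insm1 (ENSMUSG00000068154, chr2:146221921-146225020, plus strand), a zinc finger repressor needed for endocrine differentiation, was at 4.11, 5.81 and 6.67 CPM in controls. In heterozygous mice it was at 3.76, 4.89 and 6.58 CPM, and in homozygous mice at 2.89, 4.24 and 5.56 CPM. All 6 homozygous libraries lay below the control median and 3 lay below the lowest control, while the highest homozygous library lay within the control range. Insm1 had a log2 fold change of -0.37 ± 0.17 in homozygous against control mice (95% interval -0.73 to -0.01), with an unadjusted p of 0.0464 and an adjusted p of 0.584 in edgeR. The exact permutation p was 0.0541 (adjusted 0.380). Homozygous against heterozygous mice gave -0.28 ± 0.17 (-0.64 to 0.08) and heterozygous against control mice -0.09 ± 0.17 (-0.45 to 0.27).

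Nkx2-2 and Rfx6 complete the early followers. Nkx2-2 (ENSMUSG00000027434, chr2:147177546-147194243, minus strand), a homeobox factor for serotonin-producing cells among others, was at 0.586, 1.72 and 1.87 CPM in controls, 0.958, 1.38 and 2.07 CPM in heterozygous mice and 0.819, 1.22 and 1.34 CPM in homozygous mice. Control 3 held the lowest of all 18 values, and the other 5 controls, from 1.61 CPM upwards, lay above every homozygous library. The log2 fold change was -0.39 ± 0.25 in homozygous against control mice (-0.91 to 0.14, edgeR adjusted p = 0.699), -0.08 ± 0.25 in heterozygous against control (-0.61 to 0.44) and -0.30 ± 0.25 in homozygous against heterozygous mice (-0.83 to 0.22).
Rfx6 (ENSMUSG00000019900, chr10:51677756-51730432, plus strand), a winged-helix factor needed for several hormone-producing cells of gut and pancreas, was at 1.22, 1.82 and 2.07 CPM in controls. It was at 1.02, 1.71 and 1.90 CPM in heterozygous mice and 1.28, 1.44 and 1.82 CPM in homozygous mice. No homozygous library fell outside the control range. The log2 fold changes were -0.18 ± 0.19 (-0.58 to 0.22), -0.13 ± 0.19 (-0.53 to 0.27) and -0.05 ± 0.19 (-0.46 to 0.35) for homozygous against control, heterozygous against control and homozygous against heterozygous mice. Over all alternatives they ran, in this order, from -0.25 to -0.086, from -0.26 to -0.036 and from -0.13 to 0.046, so the last sign turned.

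Among the factors of subtype choice, Pax6 and Pax4 are paired-box genes. Pax6 (ENSMUSG00000027168, chr2:105668900-105697364, plus strand), an activator of the Gcg and Gip genes, was at 2.13, 2.53 and 2.92 CPM in controls. It was at 0.979, 2.60 and 3.27 CPM in heterozygous mice and 1.57, 1.92 and 2.25 CPM in homozygous mice. All 6 homozygous libraries lay below the control median and 4 of them below the lowest control. The heterozygous group held both the lowest library of all 18, heterozygous 5, and the highest, heterozygous 3. The log2 fold change was -0.39 ± 0.21 in homozygous against control mice (-0.84 to 0.05, edgeR adjusted p = 0.641), and -0.26 with the mean log2 CPM of the smooth muscle markers as a covariate. The difference of -0.604 in mean CPM had an exact permutation p of 0.0108, the lowest of the 27 tests, which adjustment over the 27 raised to 0.292. Pax6 had a log2 fold change of -0.03 ± 0.21 in heterozygous against control (-0.48 to 0.41) and -0.36 ± 0.21 in homozygous against heterozygous mice (-0.81 to 0.09). Over all alternatives the former ran from -0.13 to 0.13, so its sign turned, and the latter from -0.52 to -0.20.
Pax4 (ENSMUSG00000029706, chr6:28442334-28449353, minus strand), a repressor that acts early in subtype choice, rested on 4 to 32 counts per library. It was at 0.0794, 0.264 and 0.623 CPM in controls, 0.0833, 0.340 and 0.548 CPM in heterozygous mice and 0.0893, 0.336 and 0.686 CPM in homozygous mice, and the ranges nearly coincided. Its coefficient of variation over all libraries was 60.4%, against 26.1% from counting error. The log2 fold change of 0.36 ± 0.54 in homozygous against control mice had a 95% interval from -0.77 to 1.49, the widest of the 9, and its sign turned (-0.017) without the 4 libraries highest in B cell markers. The other log2 fold changes of Pax4 were 0.23 ± 0.54 in heterozygous against control mice (-0.91 to 1.37; -0.29 without those 4) and 0.13 ± 0.53 in homozygous against heterozygous mice (-0.99 to 1.25).

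Isl1 (ENSMUSG00000042258, chr13:116298281-116309689, minus strand) is a LIM-homeobox factor of several gut hormone cells. It was at 1.37, 2.09 and 2.91 CPM in controls, 1.22, 1.74 and 2.35 CPM in heterozygous mice and 1.37, 2.20 and 3.12 CPM in homozygous mice. Homozygous 5 held the highest value, and the homozygous and control ranges nearly coincided. Isl1 had a log2 fold change of 0.08 ± 0.22 in homozygous against control (-0.38 to 0.55), whose sign turned with the mean log2 CPM of the smooth muscle markers as a covariate (-0.019), with that of the granule genes (-0.0057) and without the 4 libraries highest in B cell markers (-0.073). It was -0.22 ± 0.22 in heterozygous against control (-0.68 to 0.25) and 0.30 ± 0.22 in homozygous against heterozygous mice (-0.16 to 0.77).
Fev (ENSMUSG00000055197, chr1:74881509-74885419, minus strand) is the ETS factor also known as Pet1, which sets the serotonin program in neurons. It was at 1.18, 2.06 and 2.48 CPM in controls, 0.992, 1.65 and 2.47 CPM in heterozygous mice and 1.14, 1.60 and 2.00 CPM in homozygous mice. All 6 homozygous libraries lay below the control median and 2 below the lowest control. Fev had a log2 fold change of -0.32 ± 0.22 in homozygous against control (-0.78 to 0.13, edgeR adjusted p = 0.715), -0.12 ± 0.22 in heterozygous against control (-0.58 to 0.33) and -0.20 ± 0.22 in homozygous against heterozygous mice (-0.65 to 0.26).

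**Figure D3:**
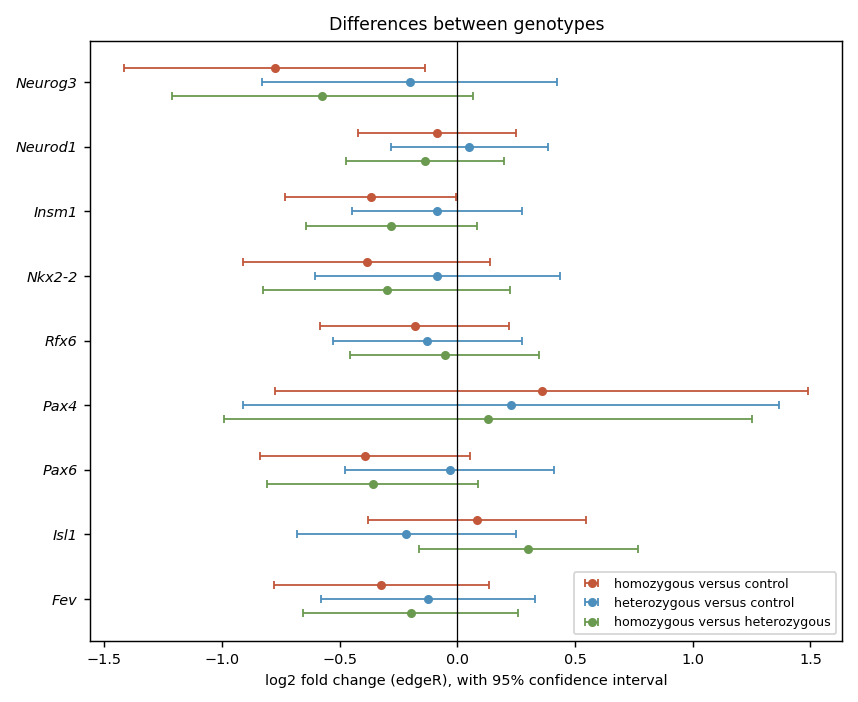
Log2 fold change of each transcription factor in the 3 comparisons, with the 95% confidence interval of the edgeR fit (n = 6 libraries per genotype). Only the homozygous against control intervals of Neurog3 (-1.41 to -0.14) and Insm1 (-0.73 to -0.01) leave out 0, and both adjusted p-values are above 0.05.

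The remaining questions were whether 1 copy of the allele moved these genes and whether 2 copies differed from 1. In heterozygous against control mice edgeR called 0 of the 9, beside 0.265% of all genes, and DESeq2 and limma-voom called 0. An unadjusted p under 0.05 was not reached by any of the 9 in edgeR, DESeq2 or limma-voom, beside 4.85% of all genes in edgeR. The log2 fold changes ran from -0.22 for Isl1 to 0.23 for Pax4, with a median of -0.09. Of the 9, 7 were below 0, beside 51.4% of all genes. Among these 7, the signs of Neurog3, Pax6, Fev and Nkx2-2 turned with 1 library left out. No gene of the 9 had CPM ranges that did not overlap, beside 0.433% of all genes. In homozygous against heterozygous mice 0 of the 9 were called by edgeR or limma-voom, beside 0.00% of all genes in edgeR. DESeq2 called 0 of the 7 to which it gave an adjusted p, and gave none to Neurog3 and Pax4. None of them reached an unadjusted p under 0.05 with the 3 tools (7.57% of all genes in edgeR), and the log2 fold changes ran from -0.57 for Neurog3 to 0.30 for Isl1, with a median of -0.20. Ranges that did not overlap were found for 0 of the 9, beside 0.323% of all genes. The comparisons share libraries, so their values stand side by side and are not independent of each other. A p above the threshold does not show that a gene was the same in both groups, and the intervals above give the sizes that these data allow.

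Female and male mice were compared in the fit with genotype, with 7 female and 11 male libraries. Females were 3 of 6 controls, 2 of 6 heterozygous and 2 of 6 homozygous mice. By edgeR 0 of the 9 genes were called, beside 0.0516% of all genes. Rfx6 had the lowest unadjusted p of the 9, with a log2 difference of 0.37 ± 0.14 (female minus male, unadjusted p = 0.0168, adjusted p = 0.999 in edgeR). Its level was 1.50, 1.89 and 2.07 CPM in females and 1.02, 1.38 and 1.80 CPM in males (lowest, median and highest), and the ranges overlapped. These levels pool the genotypes.

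The 9 genes moved together only in part from mouse to mouse. After the mean of each genotype was subtracted, the Pearson correlation of log2 CPM over 18 libraries was above 0 in 26 of the 36 pairs, with a median of 0.22. Insm1 went most closely with Fev (r = 0.69) and with Neurod1 (r = 0.59), followed by Rfx6 with Nkx2-2 (r = 0.50) and Pax6 with Pax4 (r = 0.46). Neurog3 ran against Rfx6 (r = -0.43), and Pax6 against Isl1 (r = -0.42). The points share tissue makeup and depth within a library, and these correlations are a description.

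**Figure D4:**
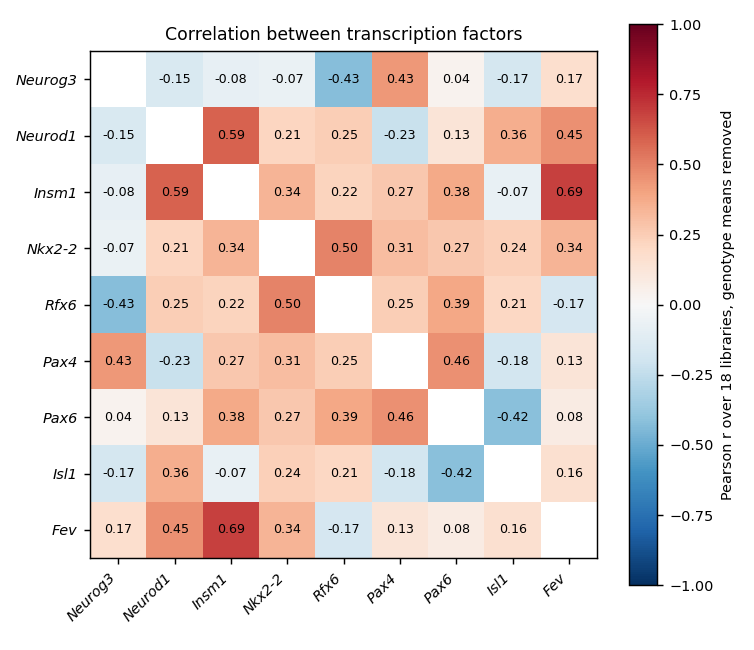
Pearson correlation between the 9 transcription factors over 18 libraries, on log2 CPM with genotype means removed; colour and number give r. The highest value is 0.69 for Insm1 with Fev and the lowest is -0.43 for Neurog3 with Rfx6.

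Markers of the gut wall also varied between these libraries. The correlation with a smooth muscle score (the mean log2 CPM of 10 markers) ran from -0.40 for Pax6 and -0.36 for Rfx6 to 0.25 for Fev and 0.30 for Isl1. With a score of the 14 granule genes, 5 of the 9 had an r below 0, namely Neurog3 and Rfx6 (-0.23), Pax6 (-0.12), Neurod1 (-0.07) and Nkx2-2 (-0.04). Fev had 0.43, Isl1 0.39, Insm1 0.06 and Pax4 0.01. Both scores were lowest in control 6 (granule 3.14, smooth muscle 5.01) and highest in homozygous 3 (4.23 and 8.96). The granule score was not separated from gut wall content, so it is not a measure of enteroendocrine cells alone.
The genes most like each member were sought among the 13849 other protein-coding genes with a mean of at least 1 CPM, by the same correlation. Neurog3 (0.848 CPM) and Pax4 (0.332 CPM) lie below that level and were not compared. For Insm1 the 3 highest were Entpd6 (r = 0.85), Vps16 (0.82) and Cyp2d26 (0.81), for Neurod1 Zfp513 (0.82), Ttc27 (0.79) and Scap (0.79), and for Fev Trappc5 (0.84), Prpsap2 (0.84) and Rbm17 (0.84). For Rfx6 they were Dnmt3b (0.88), Mfsd4b5 (0.86) and E2f7 (0.85), and for Nkx2-2 Zfp598 (0.78), Terf2ip (0.76) and Pcsk4 (0.76). For Pax6 they were Slc6a7 (0.82), Fgfr1op (0.79) and Atg16l1 (0.78), and for Isl1 E2f6 (0.74), Dcdc2b (0.73) and Tfpi2 (0.73). None of the 9 transcription factors was among the 3 most alike genes of another. Each set is the top of 13849 candidates over 18 shared libraries, and is a description only.

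Other genes around the lineage were read in the same fit. Of 18 other transcription factors of enteroendocrine cells 16 could be tested, and none passed in homozygous against control mice (edgeR). Their median log2 fold change was -0.03, with 9 below 0, beside 51.1% of all genes. At an unadjusted p under 0.05 there were 2, beside 8.52% of all genes. The lowest p was that of Etv1, an ETS factor, at 0.52 ± 0.16 (adjusted p = 0.326). Of 14 Notch and secretory fate genes, not all of which act upstream of Neurog3, none passed. Of these, 10 were below 0 with a median of -0.05, beside 51.1% of all genes below 0. The only unadjusted p under 0.05 was that of Dll1. Dll1, a Notch ligand of secretory progenitors, was at -0.24 ± 0.10 (adjusted p = 0.554) against control and at -0.35 ± 0.10 (adjusted p = 0.527) against heterozygous mice. Atoh1, which starts the secretory fate, was at 0.12 ± 0.11 in heterozygous against control mice (adjusted p = 1.00).

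Downstream of the cascade, the genes of secretory granules and hormones were set beside the regulators. None of the 14 granule genes passed in homozygous against control mice or had an unadjusted p under 0.05, 5 were below 0, and the median log2 fold change was 0.10. Among the 5 lower genes, Chga was at -0.09 ± 0.11 (edgeR adjusted p = 0.860) and Chgb at -0.14 ± 0.10 (adjusted p = 0.710). Among the 9 higher genes, Cpe was at 0.65 ± 0.38 (edgeR adjusted p = 0.674) and Pcsk1n at 0.41 ± 0.24 (adjusted p = 0.661). The lists of enteric neuron and smooth muscle markers had medians of 0.58 and 0.56 in the same comparison. The granule list was not separated from gut wall content, so its median does not describe enteroendocrine cells alone. Of 16 genes of gut hormones and serotonin synthesis 14 could be tested and none passed at an adjusted p under 0.05. The median was -0.31 with 11 below 0, beside 51.1% of all genes. An unadjusted p under 0.05 was found for 6, 5 of them lower, beside 8.52% of all genes. The lowest p was that of Ghrl, the ghrelin gene, at -0.96 ± 0.23 (adjusted p = 0.104), followed by Gip, the incretin of K cells, at -2.32 ± 0.60 (adjusted p = 0.171), and Tph1, the enzyme of serotonin synthesis, at -0.37 ± 0.11 (adjusted p = 0.267). For comparison, the lowest of the 9 regulators in this comparison was Neurog3 at -0.78.

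Markers of other cells stood as follows in homozygous against control mice. The 15 enteric neuron markers had a median log2 fold change of 0.58, with 14 above 0, beside 48.9% of all genes. Of these markers 1 passed, Ret, at 0.89 ± 0.12 (edgeR adjusted p = 0.000384). Ret was also at 0.41 ± 0.12 in heterozygous against control mice (edgeR adjusted p = 0.331). There the median of the 15 was -0.04 with 9 below 0, so Ret differed from most of its list. The median was 0.29 over 5 glia markers, 0.56 over 10 smooth muscle markers, 0.35 over 10 fibroblast markers and -2.78 over 12 B cell markers. None of these genes passed in edgeR. At an unadjusted p under 0.05 there were 2 fibroblast and all 12 B cell markers, beside 8.52% of all genes. No glia or smooth muscle marker was among them. The B cell difference rested on control 2 and control 3, with 623 and 496 CPM of summed B cell markers. Group medians of that sum were 25.1 CPM for controls, 23.4 for heterozygous mice and 18.2 for homozygous mice. The median log2 fold change was -0.03 over 10 epithelial markers and -0.17 over the 7 tuft cell markers tested, again with none passing or under an unadjusted p of 0.05. The summed level of the neuron markers was 31.5 to 151 CPM for controls, 60.0 to 128 for heterozygous mice and 105 to 237 for homozygous mice. The part of these markers in the values of the 9 genes was not tested beyond the fits that follow. With the smooth muscle score as a covariate, the log2 fold change of Neurog3 in homozygous against control mice was -0.78, that of Insm1 -0.31 and that of Pax6 -0.26. Without control 6 and heterozygous 3, an alternative added after the data had been seen, these were -0.79, -0.40 and -0.34. Without the 4 libraries highest in B cell markers they were -0.89, -0.43 and -0.34, and Nkx2-2 was at -0.57. No fit of these called any of the 9.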

How the data were processed

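The 9 genes and all gene lists were chosen with earlier results of these data known. Poly-A RNA was sequenced as paired reads, and the authors aligned them with STAR to GRCm38 and counted uniquely aligned, unambiguous reads per gene with featureCounts; the deposited counts are not normalized. The deposited CPM are these counts scaled to the library total, and the deposited FPKM divide CPM by the exon length of the gene. A table of log2 values deposited by the authors was not used.

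Protein-coding genes with a mean of at least 10 counts were compared with edgeR 4.0.16 (glmQLFit, glmQLFTest, TMM; 18 libraries, 1 coefficient per genotype; R 4.3.3), with Benjamini-Hochberg adjustment over 15489 genes at 0.05. The study's filter was not the main one because it leaves 2 of the 9 genes. Standard errors and 95% intervals come from the same fit. Two-sided exact permutation tests used deposited CPM over 924 arrangements (smallest p 0.00216). Correlations were taken on TMM-normalized log2 CPM (prior count 2). Alternatives were DESeq2 1.42.0, limma-voom (limma 3.58.1), other normalizations, filters, covariates and libraries left out. The pipeline was tested on simulated data. All 9 genes are named, with at most 4 genes of each other list (those with the lowest p in a comparison), and the 3 most alike genes of each member above 1 CPM. Mean counts per library ran from 14.7 (Pax4) to 218 (Insm1). 1 gene of the other lists is not reported here.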

Additional observations from a re-analysis of the deposited data

Results flagged for a closer look

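In 27 groups of 6 libraries (9 genes in 3 genotypes), 3 held a library whose gap to its nearest neighbour exceeded Dixon's 95% limit as a share of the group's range, where chance alone gives about 1 group in 20. Control 3 was low for Nkx2-2, at 0.586 CPM, with the other 5 controls from 1.61 to 1.87 CPM. Homozygous 3 was low for Nkx2-2, at 0.819 CPM, and this library was also the highest in smooth muscle markers (10382 CPM summed) and the lowest of the homozygous group for Neurog3, Insm1 and Pax6. Control 1 was high for Neurod1, at 5.52 CPM, and without it the log2 fold change of Neurod1 in homozygous against control mice was 0.0025.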

How the results depend on the processing

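No adjusted p of the 9 genes fell under 0.05 in the 3 comparisons under 14 alternatives or with each of 18 libraries left out. The lowest was 0.400 (Neurog3, DESeq2). The study's filter tested Neurod1 and Insm1 only, and DESeq2 gave no adjusted p to Neurog3 and Pax4 in homozygous against heterozygous mice. No call was made by permutation on TMM-normalized CPM or on log2 of CPM plus 0.5, or for sex with any library left out. Signs changed in 27 of the 843 fold changes from these fits, none of which had been called, and the cause was not tested. In homozygous against control mice Isl1 was at -0.019 with the smooth muscle score, -0.0057 with the granule score and -0.073 without the 4 libraries highest in B cell genes, and Pax4 at -0.017 without those 4. In heterozygous against control mice, without those 4, Neurod1 was at -0.052 and Pax4 at -0.29, and Pax4 was at -0.029 without control 6 and heterozygous 3. In homozygous against heterozygous mice Rfx6 was at 0.046 with the smooth muscle score and 0.019 without the 4 libraries. With each library left out in turn, homozygous against control ran from -0.15 to 0.0025 for Neurod1 and from -0.029 to 0.20 for Isl1. Heterozygous against control ran from -0.13 to 0.13 for Pax6, -0.021 to 0.14 for Neurod1, -0.35 to 0.023 for Neurog3, -0.23 to 0.0011 for Fev and -0.24 to 0.0035 for Nkx2-2. Homozygous against heterozygous ran from -0.13 to 0.019 for Rfx6 and from -0.15 to 0.33 for Pax4. Over all alternatives, some values kept their sign but moved by more than 1.5 times. In homozygous against control mice these included Rfx6 (-0.25 to -0.086) and Pax6 (-0.44 to -0.26). In heterozygous against control mice they included Rfx6 (-0.26 to -0.036), Insm1 (-0.18 to -0.0098) and Isl1 (-0.39 to -0.12). Homozygous against heterozygous mice had Pax6 (-0.52 to -0.20), Nkx2-2 (-0.38 to -0.17), Fev (-0.32 to -0.090), Neurod1 (-0.20 to -0.063) and Isl1 (0.17 to 0.40). With the replicate block 0 of the 9 genes were called in each comparison, and the calls among all genes went from 53, 41 and 0 to 50, 23 and 0. Same-numbered libraries had correlations of their deviations from -0.49 to 0.53, above 0.1 in 3, 3 and 2 of the 6 pairs of each comparison of genotypes, and the labels do not say that a number marks a shared litter or batch, so the numbers were not taken as pairs. Counts of called genes moved most with DESeq2 (139, 78 and 11) and without the 4 libraries (29, 16 and 0), and heterozygous against control had 24 calls from its 12 libraries alone and 23 without control 6 and heterozygous 3. Counting error was 26.1% of the mean for Pax4 and 16.3% for Neurog3, and the spread over all libraries was 60.4% and 43.4%.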
